A study of Mus musculus with 23 samples.

Results

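The interferon response genes examined here are 37 genes that mouse cells switch on when they sense interferon, 28 grouped as type I interferon targets and 9 as interferon gamma targets. Each gene was read from the probe set that is annotated to it alone and is brightest on average, which gave values for 35 of the 37 genes, 26 type I and all 9 gamma targets, among 18194 genes measured in the same way. Isg15 shared its probe set with a further gene and Ifi44 had no probe set of its own, so neither has a value below. The 23 arrays measured total RNA of mouse CD4+ T cells sorted into 4 gates by surface CD25, the interleukin-2 receptor alpha chain, and CD49f, the integrin alpha 6 chain. The double-negative gate (CD25-CD49f-) had 7 arrays, the CD49f single-positive gate (CD25-CD49f+) 7, the CD25 single-positive gate (CD25+CD49f-) 5 and the double-positive gate (CD25+CD49f+) 4, all labelled as T cells of female animals and as biological replicates. Strain, age, organ, genotype and any treatment are not given in the sources used here, and neither is whether the cells of an array came from 1 animal or a pool. Expression is given as log2 values, so a difference of 1 is a doubling, and levels of different probe sets cannot be set against each other.

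Type I interferons signal through the receptor chains IFNAR1 and IFNAR2 to a complex that includes STAT2 and IRF9. That complex binds the interferon-stimulated response element, or ISRE, in the promoters of antiviral genes such as the Ifit, Oas and Mx families. Interferon gamma, a cytokine made by T cells and NK cells, signals through IFNGR1 and IFNGR2 to promoter elements called gamma-activated sites, or GAS, and its targets include guanylate-binding GTPases, immunity-related GTPases and the immunoproteasome. Many targets answer to both kinds of interferon, so the grouping marks the best known inducer and not an exclusive one.

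Promoter stretches of 8 members, 4 gamma-target GTPases and 4 type I targets that changed, show the ISRE-like letters they share. The letters searched were GAAA, any 2 bases and GAAA again, on both strands, for an ISRE-like match and TTCNNNGAA for a GAS-like match, in windows of 250 bases before and 50 bases after each start in RefSeq (build GRCm38.p6). Windows existed for 27 of the 37 members. An ISRE-like match lay in 11 of 19 type I targets (57.9%) and 4 of 8 gamma targets (50%), against 3.99% of 27025 genes. A GAS-like match lay in 5 of 19 type I targets (26.3%) and 3 of 8 gamma targets (37.5%), against 9.55% of all genes. Overlapping ISRE-like matches run together in the capitals, each stretch reads 5′ to 3′ along its gene's strand, and a match is a description of letters only. The stretches are chr3:142559984-142560043 (plus strand) for Gbp3, chr3:142620584-142620643 (plus) for Gbp2, chr11:58199496-58199555 (plus) for Igtp, chr11:48871421-48871480 (minus) for Irgm1, chr5:120907526-120907585 (minus) for Oas1a, chr5:120777695-120777754 (minus) for Oas3, chr19:34640784-34640843 (plus) for Ifit1 and chr8:71537557-71537616 (minus) for Bst2.
Gbp3: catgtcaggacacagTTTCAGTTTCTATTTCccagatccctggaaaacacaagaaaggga
Gbp2: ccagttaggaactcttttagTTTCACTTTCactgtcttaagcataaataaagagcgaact
Igtp: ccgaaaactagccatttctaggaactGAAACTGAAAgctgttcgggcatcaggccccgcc
Irgm1: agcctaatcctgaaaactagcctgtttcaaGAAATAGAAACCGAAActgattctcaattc
Oas1a: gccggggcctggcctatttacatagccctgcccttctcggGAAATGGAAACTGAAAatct
Oas3: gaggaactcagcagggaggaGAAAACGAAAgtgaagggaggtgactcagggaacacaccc
Ifit1: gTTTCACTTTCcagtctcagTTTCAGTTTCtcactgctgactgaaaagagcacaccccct
Bst2: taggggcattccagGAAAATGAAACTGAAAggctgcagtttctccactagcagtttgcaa

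A set of 4 arrays stood apart from the rest of their groups by correlation, namely CD25-CD49f- replicates 1 and 7, CD25-CD49f+ replicate 1 and CD25+CD49f- replicate 5. The difference between the 3′ and 5′ Actb probe sets, a sign of RNA quality, was 4.83 in the last of these and 1.22 to 2.7 in the other arrays. Against the labelled sex, 10 arrays carried Y-linked transcripts and no Xist, 1 carried both and the remaining 12 carried Xist alone. On arrays without the transcript, the Xist probe set still read up to 6.5, and in at least 1 group the means of Mx1, Oasl1, Oasl2 and Dhx58 lay under that level, so the sizes of their differences are those of weak signals. The probe sets of Eif2s3y, Kdm5d and Uty read up to 3.49, 4.07 and 5.62 on arrays without Y-linked transcripts. Below, the range of absent transcripts means levels under 6.5, the highest of these values. A level in that range does not show that the transcript was absent. The p-values below measure the spread between these arrays only, and the number of arrays limits the precision.

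Averaged over the list, the gamma targets were lowest in CD25-CD49f- cells and highest in CD25+CD49f+ cells, while the type I means of the 4 groups lay close together. The mean of the 9 gamma targets was 9.77 ± 0.10 (SD, n = 7) in CD25-CD49f- cells, 10.05 ± 0.05 (n = 7) in CD25-CD49f+ cells, 10.15 ± 0.16 (n = 5) in CD25+CD49f- cells and 10.38 ± 0.05 (n = 4) in CD25+CD49f+ cells. Every CD25+CD49f+ array (10.32, 10.39, 10.44 and 10.36) lay above every array of the other 3 groups. Neighbours below it were less apart, since CD25-CD49f+ arrays (9.98 to 10.12) fell inside the span of CD25+CD49f- arrays (10.19, 10.28, 10.16, 10.25 and 9.88). Gbp3 carried much of this: without it the 4 group means were 10.09, 10.17, 10.24 and 10.41 in the same order, and neighbouring groups overlapped. The mean of the 26 measured type I targets was 7.67 ± 0.07, 7.71 ± 0.06, 7.64 ± 0.08 and 7.60 ± 0.06 (SD) in that order, and the arrays of all 4 groups overlapped.

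**Figure D1:**
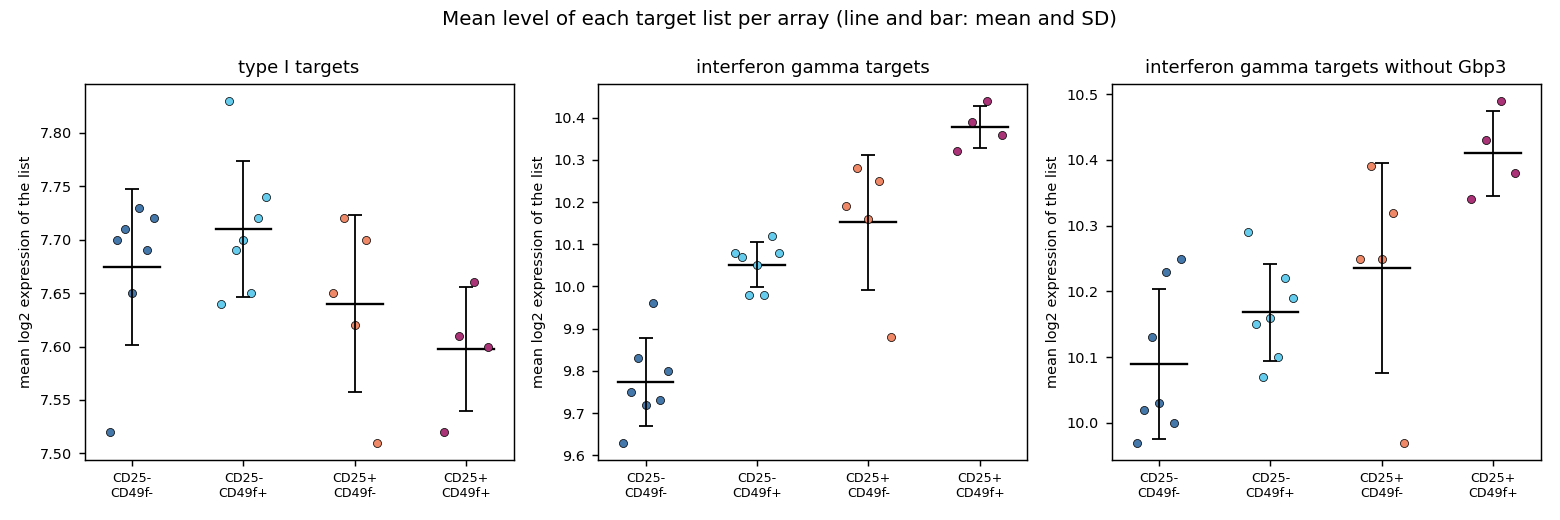
Mean log2 expression per array of the type I targets, of the interferon gamma targets and of the gamma targets without Gbp3, with 1 point per array in each of the 4 groups and a line and bar for the mean and SD. The 4 CD25+CD49f+ arrays lie at 10.32 to 10.44 in the middle panel, above the other arrays, while the type I means of all groups lie between 7.51 and 7.83; the 3 vertical axes differ.

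Of the 35 measured members, 12 changed in at least 1 of 4 pairwise comparisons, 9 of 26 type I and 3 of 9 gamma targets, and the other 23 passed the test in none. The share of all genes called in at least 1 comparison was not worked out, so these counts have no background here. Shares over all genes are given below for each comparison. Calls are those of limma at an adjusted p under 0.05, with Benjamini-Hochberg adjustment over 18194 genes. The 4 comparisons share their groups, so their values are given side by side and are not independent. Calls below, where no alternative setting is named, are from the 4 groups in 1 model with no covariate and equal weights.

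The first question was how CD49f divides cells without CD25. In CD25-CD49f+ against CD25-CD49f- cells 8 of 35 members changed (22.9%), against 13.4% of all genes. Gbp3, Mx1, Oas1a and Oas3 rose, and Bst2, Oas2, Oasl2 and Usp18 fell. Of all genes, 8.01% rose and 5.42% fell. In a fit of the 9097 brightest genes alone, 22.4% were called, among them 6 members. The number of members within those genes is not given, so member counts from that fit, here and below, have no share. The type I targets gave 3 increases and 4 decreases among 26, with a median difference of 0.06, and the gamma targets 1 increase among 9, with a median of 0.10, where the median of all genes was -0.02. The 27 other members differed by -0.26 (Oasl1) to 0.45 (Ifit1).

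The second asked how CD49f divides CD25+ cells, and here no member passed the test in limma with all 4 groups (0 of 35 against 1.82% of all genes, 0.352% higher and 1.47% lower). An unadjusted p under 0.05 was reached by 5 members, and the smallest adjusted p was 0.241 (Iigp1). In the fit of the 9097 brightest genes, 2.23% were called, with no member among them. Member differences ran from -0.42 (Oasl2) to 0.63 (Gbp3), and their 95% intervals from -0.89 to 1.09. The labels do not say that replicate numbers pair the groups. They were taken to pair these 2, as the deviations of same-numbered arrays correlated by 0.14 to 0.38. In both groups replicates 1 and 2 lacked Y-linked transcripts and replicates 3 and 4 carried them, and the part of this match in the correlation was not tested. In the CD25- groups, replicates 2 and 5 differed in Y-linked transcripts between the CD49f gates. A fit with that pairing was added after seeing the data. With the replicate as a block and only these 2 groups fitted, 3 members were called in limma: Gbp3 (0.55, adjusted p = 0.00261), Iigp1 (0.50, adjusted p = 0.00695) and Bst2 (-0.37, adjusted p = 0.0483). Array weights called 3 (Gbp3, Iigp1 and Oasl2), leaving out the 4 arrays that stood apart called Gbp3 and Iigp1, and leaving out CD25-CD49f- replicate 7 alone called Gbp3 (0.63, adjusted p = 0.045). Calls over all genes rose in these fits too. They were 3.49% with the block, 4.19% with array weights, 3.23% without the 4 arrays and 2.37% without replicate 7.

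The third comparison set CD25+CD49f- against CD25-CD49f- cells, where 7 of 35 members changed (20%), against 14.0% of all genes. Gbp3, Iigp1, Oas1a and Ifit1 rose, and Oas2, Oasl2 and Irf7 fell, against 9.34% of all genes that rose and 4.68% that fell. In the fit of the 9097 brightest genes, 23% were called, among them 8 members. The gamma targets gave 2 increases among 9 with a median difference of 0.17, and the type I targets 2 increases and 3 decreases among 26 with a median of -0.01, the median of all genes. The fourth comparison, CD25+CD49f+ against CD25-CD49f+ cells, called 6 members (17.1%), against 5.72% of all genes, 2.81% higher and 2.91% lower. Gbp3, Iigp1, Igtp and Usp18 rose, and Oas3 and Oasl2 fell. There the gamma targets gave 3 increases among 9, with a median of 0.15, and the type I targets 1 increase and 2 decreases among 26, with a median of -0.12, where the median of all genes was 0.02. This last count moved with the arrays: 12 members were called without the 4 arrays that stood apart and 15 with array weights, where the calls over all genes rose to 13% and 16.9%. It was 3 among arrays without Y-linked transcripts (2.71% of all genes) and 1 among those with them and without Xist (1.45%). In the fit of the 9097 brightest genes it was 5, where 9.59% of those genes were called.

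**Figure D2:**
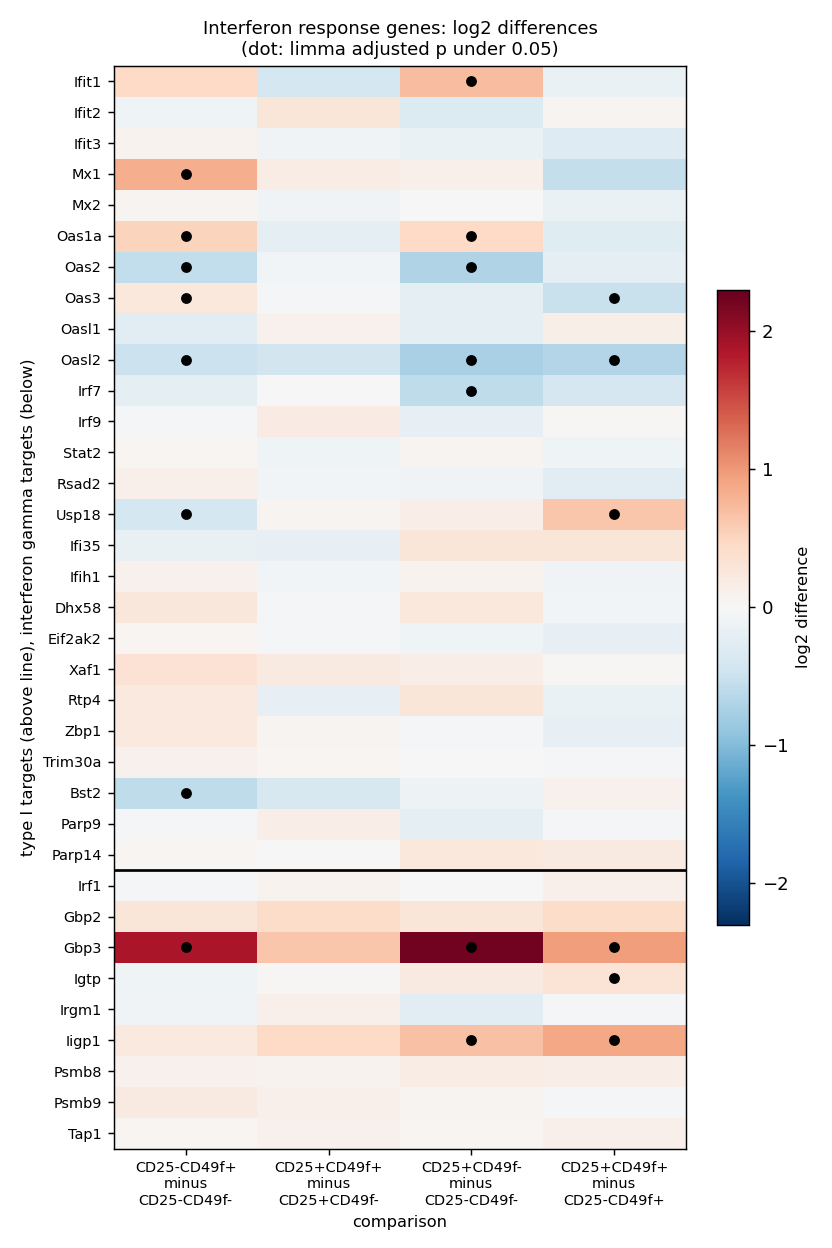
Log2 difference of each of the 35 measured members (rows, type I targets above the line and gamma targets below) in the 4 comparisons (columns), with red for higher and blue for lower in the group named first and a dot for a limma adjusted p under 0.05. The Gbp3 row holds the deepest red, at 1.88 and 2.22 against CD25-CD49f- cells, and the column within CD25+ cells holds no dot.

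Guanylate-binding and immunity-related GTPases, which attack the membranes around intracellular microbes, held all 3 gamma targets that changed. Gbp3 had the widest range of all members, 4.01 between the lowest and the highest array. Its levels were 6.22 to 7.84 (median 7.40) in CD25-CD49f- cells and 8.47 to 9.41 (median 9.23) in CD25-CD49f+ cells. They were 9.77, 9.41, 9.42, 9.63 and 9.17 in the CD25+CD49f- arrays, and 10.15, 10.07, 9.98 and 10.23 in the CD25+CD49f+ arrays. CD25-CD49f- cells lay below the other 3 groups without overlap and CD25+CD49f+ cells above them, while the 2 groups between overlapped. Gbp3 rose by 1.88 ± 0.18 (SE) with CD49f in CD25- cells, a 3.67-fold difference (limma adjusted p = 1.8e-08), and by 2.22 ± 0.20 with CD25 in CD49f- cells, a 4.65-fold difference (adjusted p = 4.05e-09). Within CD49f+ cells it rose by 0.97 ± 0.21 with CD25 (adjusted p = 0.00414), and within CD25+ cells it differed by 0.63 ± 0.23 with CD49f (adjusted p = 0.304). The difference with CD49f was smaller in CD25+ than in CD25- cells, by an interaction of -1.25 ± 0.29 (limma adjusted p = 0.00748). The lowest Gbp3 arrays within the CD25- groups were CD25-CD49f- replicate 7 (6.22) and CD25-CD49f+ replicate 1 (8.47). Without the 4 arrays that stood apart the interaction was -1.17 (adjusted p = 2.68e-06). It was not called among arrays without Y-linked transcripts (-1.19, adjusted p = 0.146) or among those with them and without Xist (-1.52, adjusted p = 0.28). Markers of regulatory T cells followed the same order, with list means of 6.97, 9.27, 10.57 and 10.69 for the 5 genes. All 5 were called in each of the 3 comparisons that called Gbp3. The list includes Il2ra, which encodes CD25, on which the cells were sorted. Its differences with CD25 therefore follow from the gates and enter the list means. The part of these markers in the Gbp3 result was not tested.

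Iigp1, an immunity-related GTPase, rose with CD25 in both CD49f gates. Its levels were 8.43 to 8.91 (median 8.50) in CD25-CD49f- cells and 8.25 to 9.12 (median 8.92) in CD25-CD49f+ cells. The CD25+CD49f- arrays read 9.23, 8.81, 9.38, 9.40 and 9.49, and the CD25+CD49f+ arrays 9.73, 9.52, 9.87 and 9.70. The CD25+CD49f+ group lay above all other arrays, and the other groups overlapped with at least 1 neighbour. With CD25, Iigp1 rose by 0.89 ± 0.14 in CD49f+ cells (limma adjusted p = 0.000123) and by 0.67 ± 0.13 in CD49f- cells (adjusted p = 0.000636). A further Iigp1 probe set gave 0.85 ± 0.13 and 0.76 ± 0.12, both called. Among arrays without Y-linked transcripts the rise in CD49f- cells was 0.39 (adjusted p = 0.347), and among those with them and without Xist 0.86 (adjusted p = 0.0018). With CD49f it differed by 0.23 in CD25- and 0.45 in CD25+ cells, neither called, but both were called with array weights (0.29, adjusted p = 0.0366, and 0.46, adjusted p = 0.018). In CD25- cells leaving out CD25-CD49f+ replicate 1 gave 0.32 with an adjusted p of 0.0498.

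Igtp, also known as Irgm3, was nearly level across the 4 groups, with means of 10.80, 10.71, 11.01 and 11.03 in the order used above. Its arrays ran from 10.62 to 10.81 (median 10.70) in CD25-CD49f+ cells and read 10.87, 11.17, 11.01 and 11.06 in CD25+CD49f+ cells, which did not overlap. The difference of 0.32 ± 0.08 was a 1.25-fold rise (limma adjusted p = 0.0105), lost without CD25+CD49f+ replicate 2 (0.27, adjusted p = 0.0739). With CD25 in CD49f- cells Igtp was called without CD25-CD49f- replicate 5 or CD25+CD49f- replicate 1 or 5 (0.23 to 0.24, adjusted p 0.0213 to 0.0472). Irgm1, a regulator of the other immunity-related GTPases, differed by -0.24 to 0.11 in the 4 comparisons. Gbp2, a neighbour of Gbp3 on chromosome 3, was not called: its means were 10.39, 10.65, 10.65 and 11.07, and its differences 0.27 to 0.42. CD25+CD49f- replicate 5 was its lowest array at 9.95, and without that array Gbp2 was called with CD25 in CD49f- cells (0.44, adjusted p = 0.00483) and in CD49f+ cells (0.42, adjusted p = 0.0143). With all arrays, Gbp2 was also called with array weights (0.42, adjusted p = 0.00573, and 0.40, adjusted p = 0.00275) and with the Actb covariate (0.44, adjusted p = 0.00255, and 0.45, adjusted p = 0.00428) in these comparisons, and in CD49f+ cells after quantile normalization (0.45, adjusted p = 0.0402). A further Gbp2 probe set, with a mean of 9.37, gave -0.03 ± 0.28 with CD25 in CD49f- cells and 0.45 ± 0.29 in CD49f+ cells. With CD49f it gave 0.27 in CD25- and 0.75 in CD25+ cells, and none of its differences was called.

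The remaining gamma targets stayed within narrow bounds. Irf1, an early transcription factor of the interferon gamma response, had group means of 10.79 to 10.91 and differences of -0.03 to 0.12. Psmb8 and Psmb9, immunoproteasome subunits, and Tap1, a peptide transporter, serve antigen presentation on MHC class I and lie next to each other on chromosome 17. Psmb8 differed by 0.08 to 0.17, Psmb9 by -0.03 to 0.20 and Tap1 by 0.04 to 0.11, with none called. Among 8 further measured class I processing genes none was called in any comparison.

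The oligoadenylate synthetases, which make the messenger that activates RNase L against viral RNA, split by gene. Oas1a was lowest in CD25-CD49f- cells, at 7.03 to 7.39 (median 7.23), against 7.51 to 7.93 (median 7.80) in CD25-CD49f+ cells. It read 7.60, 7.96, 7.62, 7.46 and 7.74 in CD25+CD49f- arrays and 7.45, 7.67, 7.48 and 7.31 in CD25+CD49f+ arrays. CD25-CD49f- arrays did not overlap with either neighbour gate, but did overlap with CD25+CD49f+ arrays. Oas1a rose by 0.52 ± 0.08 with CD49f in CD25- cells (limma adjusted p = 4.28e-05) and by 0.45 ± 0.09 with CD25 in CD49f- cells (adjusted p = 0.000804). The CD49f difference was smaller in CD25+ cells by -0.72 ± 0.13 (interaction, limma adjusted p = 0.000791). The interaction thus called Gbp3 and Oas1a, 2 of 35 members (5.71%), both lower, against 5.31% of all genes, 4.33% lower and 0.984% higher.

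Oas2 went the opposite way. It was highest in CD25-CD49f- cells, at 7.31 to 8.46 (median 7.54), against 6.87 to 7.38 (median 7.10) in CD25-CD49f+ cells, which overlapped slightly. CD25+CD49f- arrays read 6.77, 6.88, 7.0, 6.92 and 7.25 and CD25+CD49f+ arrays 6.90, 6.82, 7.0 and 6.85, all below the CD25-CD49f- arrays. Oas2 fell by 0.56 ± 0.13 with CD49f in CD25- cells (limma adjusted p = 0.00225) and by 0.70 ± 0.14 with CD25 in CD49f- cells (adjusted p = 0.000545). Without the 4 arrays that stood apart the differences were -0.45 and -0.62, both called.

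Oas3 was highest in CD25-CD49f+ cells, at 7.23 to 7.64 (median 7.44). The CD25+CD49f+ arrays, at 6.98, 7.05, 6.73 and 6.93, all lay lower, and Oas3 was lower there by -0.52 ± 0.09 (limma adjusted p = 0.000587). With CD49f in CD25- cells the rise was 0.25 ± 0.08 (adjusted p = 0.034). That call was lost, with adjusted p of 0.0558 to 0.0827 and differences of 0.22 to 0.25, when CD25-CD49f- replicate 2, 3, 4 or 6 or CD25-CD49f+ replicate 1, 2, 3 or 7 was left out. Oas1a, Oas2 and Oas3 lie near each other on chromosome 5.

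Oasl2, an oligoadenylate synthetase-like protein, was a weak signal, with all group means under the 6.5 that the Xist probe set reached on arrays without Xist. It read 5.84 to 6.98 (median 6.37) in CD25-CD49f- cells and 5.54 to 6.06 (median 5.80) in CD25-CD49f+ cells, which overlapped, with a difference of -0.49 ± 0.14 (limma adjusted p = 0.0175). The CD25+CD49f- arrays read 5.63, 5.89, 5.33, 5.66 and 5.40 and the CD25+CD49f+ arrays 4.75, 5.09, 5.52 and 5.29, the latter all below the CD25-CD49f+ arrays. The falls with CD25 were -0.75 ± 0.15 in CD49f- cells (adjusted p = 0.000834) and -0.68 ± 0.16 in CD49f+ cells (adjusted p = 0.01), the latter lost without CD25+CD49f+ replicate 1 (-0.54, adjusted p = 0.0866). Oasl1, its neighbour and a repressor of Irf7 translation, had no call, with -0.26 in the first of these comparisons and -0.34 (adjusted p = 0.0469) without CD25-CD49f- replicate 4.

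Mx1, a dynamin-like GTPase against influenza viruses, also lay at the level of weak signals. It read 3.96 to 5.72 (median 4.80) in CD25-CD49f- cells and 5.34 to 6.07 (median 5.70) in CD25-CD49f+ cells, which overlapped, and rose by 0.83 ± 0.20 (limma adjusted p = 0.0056). Its CD25+ arrays lay at 4.48 to 5.66, with no call. Mx2, its neighbour on chromosome 16, was not called in any comparison.

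Ifit1, a sensor that binds viral RNA ends, read 5.64 to 7.09 (median 6.75) in CD25-CD49f- cells and 7.34, 7.03, 7.37, 7.13 and 7.85 in CD25+CD49f- cells. The groups overlapped, and the rise was 0.71 ± 0.21 (limma adjusted p = 0.0185). Both extreme arrays stood apart: without CD25+CD49f- replicate 5 the rise was 0.58 (adjusted p = 0.0709), and without the 4 arrays 0.39 (adjusted p = 0.0732). Ifit2 and Ifit3, its neighbours on chromosome 19, had no call. Ifit2 was called lower with CD25 in CD49f- cells without CD25-CD49f- replicate 7 (-0.51, adjusted p = 0.0438), and Ifit3 lower with CD25 in CD49f+ cells without CD25-CD49f+ replicate 1 (-0.35, adjusted p = 0.0443).

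Usp18, which removes ISG15 from proteins and dampens signalling at IFNAR2, was lowest in CD25-CD49f+ cells. It read 7.02 to 7.54 (median 7.47) there and 7.57 to 7.99 (median 7.81) in CD25-CD49f- cells. The CD25+CD49f+ arrays read 7.82, 8.02, 8.31 and 7.90, and neither group overlapped with CD25-CD49f+ cells. CD25+CD49f- arrays read 7.97, 8.25, 8.11, 8.29 and 7.14, the last being replicate 5. Usp18 rose with CD25 in CD49f+ cells by 0.63 ± 0.16 (limma adjusted p = 0.0146), a call lost without CD25+CD49f+ replicate 3 (0.53, adjusted p = 0.0936). It fell with CD49f in CD25- cells by 0.41 ± 0.14 (adjusted p = 0.0448). That call was lost without any of 14 arrays (adjusted p 0.051 to 0.0936, differences of -0.43 to -0.35), namely CD25-CD49f- replicates 2, 3, 4, 5 and 6, CD25-CD49f+ replicates 1, 3, 4, 5 and 6, CD25+CD49f- replicates 1 and 3 and CD25+CD49f+ replicates 2 and 4. With CD25 in CD49f- cells it was not called but was without CD25+CD49f- replicate 5 (0.36, adjusted p = 0.0311).

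**Figure D3:**
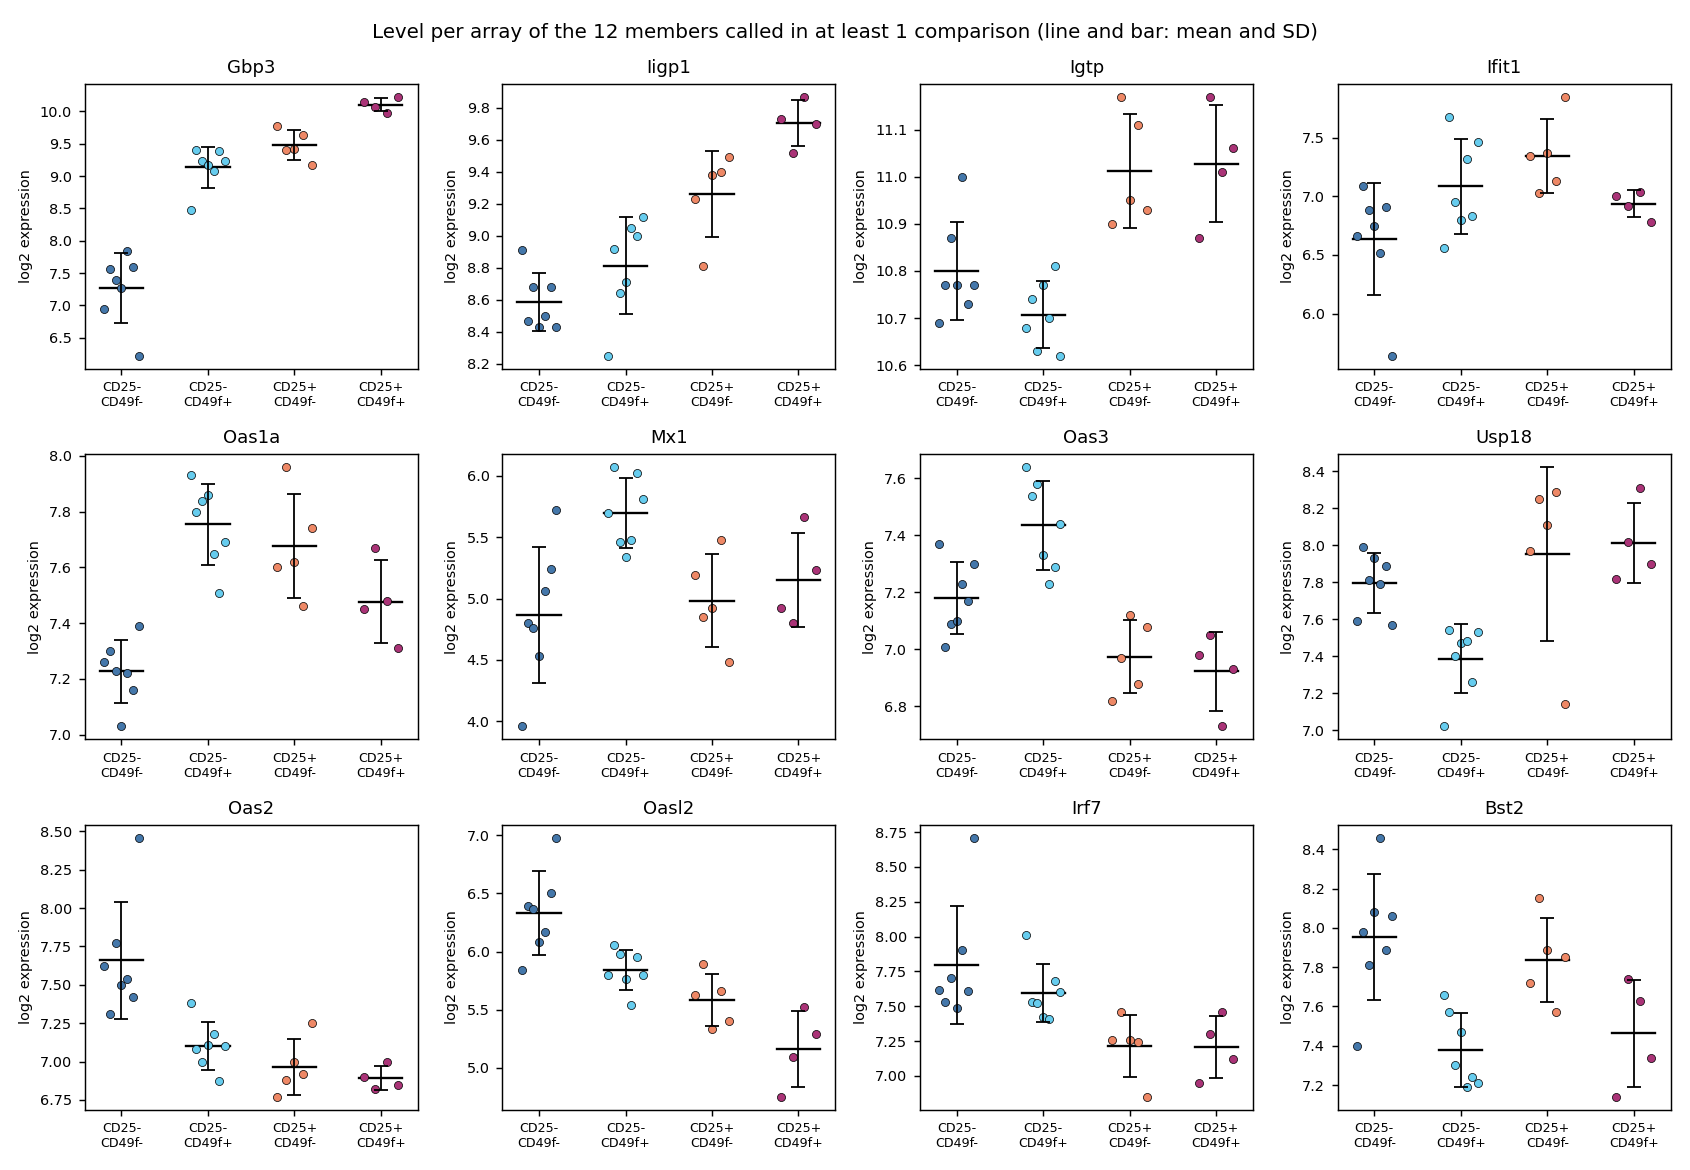
Log2 expression per array of the 12 members called in at least 1 comparison, with 1 panel per gene, 1 point per array in each of the 4 groups and a line and bar for the mean and SD. Gbp3 climbs from a median of 7.40 in CD25-CD49f- cells to arrays of 9.98 to 10.23 in CD25+CD49f+ cells, while Oas2 is highest in CD25-CD49f- cells, with 1 array at 8.46; the vertical axes differ.

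Of the 3 transcription factors among the type I members, Irf7, the main amplifier of type I interferon production, was called and Irf9 and Stat2 were not. Irf7 read 7.49 to 8.71 (median 7.62) in CD25-CD49f- cells and 7.41 to 8.01 (median 7.53) in CD25-CD49f+ cells. The CD25+CD49f- arrays read 7.26, 7.46, 7.26, 7.24 and 6.85, all below the CD25-CD49f- arrays. The fall of 0.58 ± 0.16 with CD25 in CD49f- cells (limma adjusted p = 0.0137) was lost without CD25+CD49f- replicate 5 (-0.49, adjusted p = 0.053) and was -0.34 (adjusted p = 0.0131) without the 4 arrays that stood apart. With CD25 in CD49f+ cells it was called without CD25-CD49f- replicate 7 (-0.39, adjusted p = 0.0468). Irf9, the DNA-binding part of the type I complex, had group means of 9.28 to 9.46, and Stat2 of 6.75 to 6.84, with no call in any comparison.

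Bst2, or tetherin, holds budding virus at the cell surface and is also a surface marker of plasmacytoid dendritic cells. It read 7.40 to 8.46 (median 7.98) in CD25-CD49f- cells and 7.19 to 7.66 (median 7.30) in CD25-CD49f+ cells, with some overlap, and fell by 0.58 ± 0.13 (limma adjusted p = 0.00219). In CD25+CD49f- cells it read 7.72, 8.15, 7.89, 7.57 and 7.85, and in CD25+CD49f+ cells 7.14, 7.74, 7.63 and 7.34. In bulk RNA, fewer cells of a type and less RNA per cell cannot be told apart.

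The plasmacytoid and the myeloid marker lists were highest on average in CD25-CD49f- cells, as were Bst2, Oas2, Oasl2 and Irf7. Of 11 measured plasmacytoid dendritic cell markers, 9 fell with CD49f in CD25- cells, and their mean ran from 6.91 to 7.99 in CD25-CD49f- arrays against 6.11 to 6.69 in CD25-CD49f+, 6.4 to 6.86 in CD25+CD49f- and 6.24 to 6.70 in CD25+CD49f+ arrays. Siglech, a defining gene of these cells, averaged 7.09 in CD25-CD49f- cells and 5.73 to 5.76, within the range of absent transcripts, elsewhere. Of 14 markers of myeloid and conventional dendritic cells 6 fell with CD49f in CD25- cells, with list means of 6.60 to 7.84 in CD25-CD49f- arrays against 6.50 to 7.02, 6.44 to 6.83 and 6.19 to 6.74 in the other groups. Itgax averaged 8.58 in CD25-CD49f- cells and 6.66, 6.16 and 6.22 in the others, while Itgam lay in the absent range in all groups. CD25-CD49f- replicate 7 had the highest Oas2 (8.46), Irf7 (8.71) and myeloid list mean (7.84), and replicate 5 the highest Bst2 (8.46) and plasmacytoid list mean (7.99). With CD25 in CD49f- cells 5 plasmacytoid markers fell and 2 rose, and 5 myeloid markers fell and 1 rose. Bst2 differed there by -0.12, with no call, while the plasmacytoid list mean was 6.69 against 7.41. Irf7 differed by -0.20 with CD49f in CD25- cells, with no call. Usp18 averaged 7.80 in CD25-CD49f- cells against 7.95 and 8.01 in the CD25+ groups. The part of plasmacytoid and myeloid cells in the falls of Bst2, Oas2, Oasl2, Irf7 and Usp18 was not tested. The mean of the 6 measured T cell markers was 11.09 to 11.12 in the 4 groups, and 1 of the 6, Cd4, was lower with CD25 in CD49f+ (-0.41) and CD49f- cells (-0.28). The markers of dividing cells averaged 6.65, 9.49, 7.34 and 8.30 in the 4 groups.

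**Figure D4:**
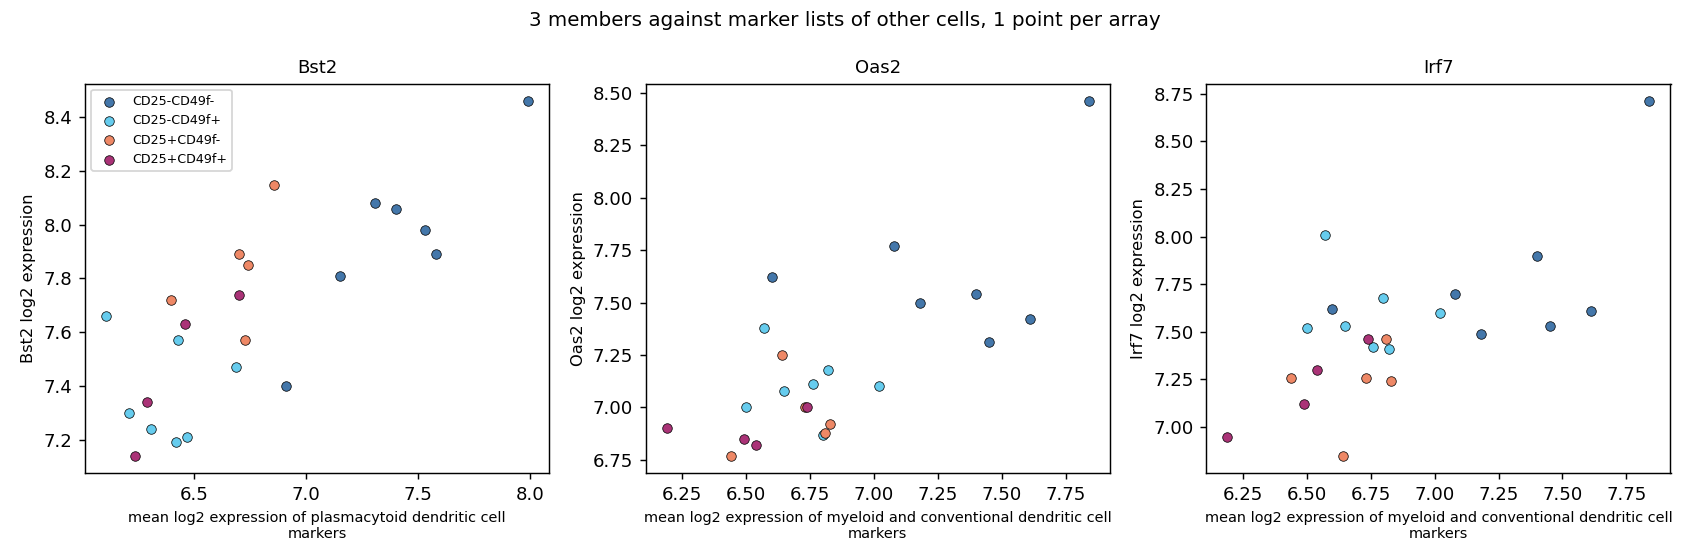
Log2 expression per array of Bst2 against the mean of the plasmacytoid dendritic cell markers, and of Oas2 and Irf7 against the mean of the myeloid and conventional dendritic cell markers, with points coloured by group. CD25-CD49f- arrays reach the highest marker means, up to 7.99 and 7.84, and hold the highest Bst2 (8.46), Oas2 (8.46) and Irf7 (8.71) values.

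The other type I members covered RNA sensing, translation arrest and cell death, and none was called. Ifih1 and Dhx58 are sensors of viral RNA, Eif2ak2 is the kinase PKR, Zbp1 senses unusual nucleic acid shapes, and Rsad2 is the antiviral enzyme viperin. Leaving out 1 array made a call of Dhx58 with CD49f in CD25- cells (0.34, adjusted p = 0.0202) and with CD25 in CD49f- cells (0.33, adjusted p = 0.0436), both without CD25-CD49f- replicate 7. Without CD25-CD49f+ replicate 1, Xaf1 (0.44, adjusted p = 0.036) and Rtp4 (0.31, adjusted p = 0.0439) were called higher with CD49f in CD25- cells. Zbp1 was called there without CD25+CD49f- replicate 5 (0.23, adjusted p = 0.0174). Ifi35, with group means of 10.79 to 11.24, differed by 0.28 with CD25 in CD49f- cells (adjusted p = 0.0696). It was called there without CD25-CD49f- replicate 1 or 5 or CD25+CD49f- replicate 1 (0.31 to 0.34, adjusted p 0.015 to 0.0483). In the same comparison Parp14, an ADP-ribosyltransferase, was called without CD25-CD49f- replicate 3, 5 or 7 or CD25+CD49f- replicate 4 or 5 (0.26 to 0.29, adjusted p 0.0135 to 0.0465). Its relative Parp9 and the ubiquitin ligase Trim30a were not called with any 1 array left out. Of 14 members with several probe sets, another probe set gave a different call for Rsad2, at -0.46 (adjusted p = 0.021) with CD25 in CD49f+ cells where the probe set used gave no call. That probe set averaged 4.85, a weak signal.

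Within groups, arrays high for 1 gamma target tended to be high for others. As a description, the median correlation of deviations from the group mean over the 23 arrays was 0.44 over the 36 pairs of gamma targets and 0.01 over the 325 pairs of type I targets, against 0.02 over pairs of all genes. Without the 4 arrays that stood apart it was 0.29 and 0.05. All these pairs share the same arrays.

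Upstream of the members, Ifng itself differed most. It averaged 5.13 ± 0.55 (SD, n = 7) in CD25-CD49f- cells, within the range of absent transcripts, and 8.64 ± 0.38 (n = 7), 7.63 ± 0.41 (n = 5) and 7.29 ± 0.37 (n = 4) in CD25-CD49f+, CD25+CD49f- and CD25+CD49f+ cells. Its level was highest in CD25-CD49f+ cells, and those of Gbp3 and Iigp1 in CD25+CD49f+ cells. Against CD25-CD49f- cells Ifng rose by 3.51 with CD49f and by 2.5 with CD25, and Gbp3 by 1.88 and 2.22. With CD25 in CD49f+ cells Ifng fell by 1.36 ± 0.25 (limma adjusted p = 0.000751) and Gbp3, Iigp1 and Igtp rose. The part of Ifng in the levels of these members was not tested. The remaining 7 measured ligand genes were not called.

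Of the 6 receptor chains, Ifnar2 rose with CD49f in CD25- cells (0.62 ± 0.16, limma adjusted p = 0.00905) and with CD25 in CD49f- cells (0.97 ± 0.18, adjusted p = 0.000255). Ifngr2 fell with CD49f in CD25- cells (-0.51 ± 0.09, adjusted p = 0.00021), and Ifngr1 (0.32) and Il10rb (0.45) rose with CD25 in CD49f- cells. Ifnar1 was not called in any comparison. Irf4, a factor of activated lymphocytes, rose with CD49f in CD25- cells by 1.43 and with CD25 in CD49f- cells by 1.34, and Irf8, a dendritic cell factor also present in T cells, fell by 0.83 in the former. Socs1, the feedback inhibitor of JAK kinases, rose with CD25 in CD49f+ cells (0.73 ± 0.21, adjusted p = 0.0349), with all group means (5.33 to 6.06) in the absent range, so the size is that of a weak signal.

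Further type I targets went in both directions, as the members did. Of 34 further type I targets 7 rose and 6 fell with CD49f in CD25- cells (38.2%, against 13.4% of all genes), among them Ifi27l2a (1.02), Ifitm1 (1.03), Epsti1 (1.02) and Slfn8 (-0.56). With CD25 in CD49f- cells 4 rose and 4 fell (23.5%, against 14.0%), with Samhd1 at 0.60 and Slfn1 at -1.04. With CD25 in CD49f+ cells 2 rose and 5 fell (20.6%, against 5.72%), with Slfn1 at -0.92 and Ifitm1 at -1.13. Of 15 further gamma targets, 1 rose and 5 fell with CD49f in CD25- cells (40%, against 13.4%), and 4 fell in CD25+ cells (26.7%, against 1.82%). With CD25, 5 rose in CD49f- cells (33.3%, against 14.0%) and 1 rose in CD49f+ cells (6.67%, against 5.72%), and none fell. The chemokine Cxcl10 rose by 2.41 and 3.27 against CD25-CD49f- cells, where its mean of 4.54 lay in the absent range, so the size is that of a weak signal. The MHC class II genes H2-Aa (-1.48 and -1.70), H2-Ab1 (-1.82 and -1.54), H2-Eb1 (-1.85 and -1.39) and Cd74 (-1.73 and -1.41), which dendritic and B cells express strongly, fell with CD49f in CD25- and in CD25+ cells. In all, 105 further pathway genes gave 12 higher and 16 lower with CD49f in CD25- cells (26.7%, against 13.4% of all genes) and 0 and 5 in CD25+ cells (4.76%, against 1.82%). With CD25 they gave 17 and 8 in CD49f- cells (23.8%, against 14.0%) and 5 and 8 in CD49f+ cells (12.4%, against 5.72%). In the fit of the 9097 brightest genes, the shares over those genes were 22.4%, 2.23%, 23% and 9.59% in the same order. The pathway shares above are from the fit of all genes, so the 2 sets of shares are not like for like.

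Each group held arrays with and without Y-linked transcripts, and the 23 member calls in the 5 tests kept their direction in both sets. Of the 23, 11 were called again among arrays without Y-linked transcripts and 7 among those with them and without Xist, sets that hold 12 and 10 arrays. Gbp3 rose with CD49f in CD25- cells by 1.71 in the former and 2.10 in the latter, and with CD25 in CD49f- cells by 2.23 and 2.39, all called. With CD25 in CD49f+ cells its rise was 1.04 (limma adjusted p = 0.0426) and 0.87 (adjusted p = 0.487). Its interaction was called in neither set, at -1.19 and -1.52. Oasl2 was furthest apart between the sets, at -0.35 and -1.12 with CD25 in CD49f- cells, and that gap was not tested.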

How the data were processed

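Biotin-labelled total RNA was measured on 23 oligonucleotide arrays. The deposited values were log2 levels of 45101 probe sets, made by the authors with RMA, per the submitters' processing notes (version not given in the sources used here), and no further scaling was applied. Of these, 34958 named 1 gene, 932 several and 9211 none, and 34754 matched RefSeq by Entrez identifier, which left 18194 genes with the probe set of highest mean each. No low-value filter was used. Groups came from the sample titles. The 4 groups entered 1 linear model (limma 3.58.1, R 4.3.3), and differences were called at a Benjamini-Hochberg adjusted p under 0.05; the fit was tested on simulated data. Figures used Python 3.11.15 and matplotlib 3.10.9.

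The members and lists were chosen with earlier results of these data known. Named genes were the members, up to 4 called genes with the smallest p per further list and comparison, and Ifng, its receptor and the type I receptor genes, Irf8 and Socs1. Intervals are at 95%. Y-linked transcripts were scored present where Eif2s3y exceeded 6, and Xist where it exceeded 8 (log2). Replicate numbers were taken to pair groups where every pair of same-numbered arrays deviated together by more than 0.1 (correlation): for the CD25+ groups, 4 pairs gave 0.14 to 0.38. For the others the lowest pair was -0.08 (CD49f in CD25- cells, where the median of 7 pairs was 0.28, against 0.24 in the CD25+ groups), -0.35 (CD25 in CD49f+ cells) and -0.51 (CD25 in CD49f- cells). Alternatives were leaving out each array, replicate blocks, scaling, probe set choice, brighter genes, compared groups alone, array weights, Y-linked splits and stricter thresholds; fits leaving out the 4 outlying arrays, with the Actb difference and with the block in only the groups compared were added after seeing the data.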

Additional observations from a re-analysis of the deposited data

Results flagged for a closer look

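In 18 of 140 sets of arrays (a member in a group), 1 array lay farther from the others than Dixon's 95% limit allows; chance alone gives about 1 in 20. CD25-CD49f+ replicate 1 accounted for 8, CD25-CD49f- replicate 7 for 7, CD25-CD49f- replicate 5 for 2 and CD25+CD49f- replicate 5 for 1.

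CD25-CD49f- replicate 7 was high for Mx2 (7.35), Oas2 (8.46), Irf7 (8.71), Stat2 (7.50) and Tap1 (9.79) and low for Ifit1 (5.64) and Ifih1 (6.69). CD25-CD49f+ replicate 1 was low for Ifit2 (7.51), Ifih1 (7.05), Xaf1 (7.53), Trim30a (8.66) and Gbp3 (8.47) and high for Irf1 (11.08), Psmb8 (11.37) and Tap1 (9.71). CD25-CD49f- replicate 5 was low for Rsad2 (6.37) and high for Irf1 (10.97), and CD25+CD49f- replicate 5 was low for Usp18 (7.14). Within the CD25-CD49f- group, the mean of the type I targets was low in replicate 1 (7.52, against 7.65 to 7.73 in its other arrays).

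The CD49f difference itself differed between CD25+ and CD25- cells for Gbp3 (-1.25, limma adjusted p = 0.00748) and Oas1a (-0.72, limma adjusted p = 0.000791). Among arrays without Y-linked transcripts only Oas1a was called, and among those with them and without Xist neither was.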

How the results depend on the processing

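No member result changed direction among those called. With CD49f in CD25+ cells, 0 members became 1 with the mean of a gene's probe sets or only the groups compared, 3 with array weights, 2 without the 4 arrays that stood apart and 3 with the replicate block in only the groups compared (0 to 1 leaving out 1 array). With CD49f in CD25- cells, 8 became 4 in each Y-linked split, 5 at an adjusted p of 0.01 and 5 at a log2 difference of 0.5, and 12 without the 4 arrays and 11 with array weights (6 to 9). With CD25 in CD49f+ cells, 6 became 15 with array weights, 3 without Y-linked transcripts, 1 with them and without Xist and 12 without the 4 arrays (5 to 7). With CD25 in CD49f- cells, 7 became 12 with array weights, 3 in Y-linked arrays without Xist and 11 with the Actb covariate (7 to 10). The interaction's 2 became 7, 1 and 0 with array weights, without Y-linked transcripts and with them, and 4 without the 4 arrays (2 to 2). Shares over all genes moved in the same fits. In that order of comparisons they were 4.19%, 20.6%, 16.9%, 20.1% and 12.5% with array weights. They were 3.23%, 19.1%, 13%, 19.7% and 9.4% without the 4 arrays. They were 0.654%, 7.37%, 2.71%, 7.06% and 2.03% without Y-linked transcripts, and 0.506%, 5.94%, 1.45%, 5.52% and 1.33% with them and without Xist. With the Actb covariate the share was 14.8% with CD25 in CD49f- cells. With CD49f in CD25- cells it was 8.99% at an adjusted p of 0.01 and 6.61% at a log2 difference of 0.5. With CD49f in CD25+ cells it was 1.99% with the mean of a gene's probe sets and 1.96% with only the groups compared. The replicate block in only those groups gave 3.49%. Splits leave fewer arrays; the other causes were not tested. With the mean of a gene's probe sets the type I means were 7.10, 7.11, 7.05 and 7.02 and the gamma means 8.89, 9.16, 9.26 and 9.48 in the double-negative, CD49f single-positive, CD25 single-positive and double-positive gates. In the fit of 4 groups, the fixed replicate block gave 0 members with CD49f in CD25+ cells and 7 in CD25- cells, and the random block (correlation -0.013) gave 0 and 8. Over all genes these fits called 1.77% and 13.3% with the fixed block and 1.77% and 13.2% with the random block.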
